A study of Homo sapiens with 4 samples.

Results

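The mRNAs of 41 genes that encode the DNA replication machinery were compared between WT and Helz-null HEK293T cells. The genes were taken as a list of 41 symbols, all of which were found among the 27011 genes of the deposited count table and among the 10978 genes that were tested, so that no member was lost to a filter on low values. They were ordered here by the role of their proteins: the 6 subunits of the origin recognition complex, the licensing regulators CDT1 and GMNN, the 6 subunits of the MCM2-7 helicase, CDC45 and the 4 GINS subunits, MCM8 and MCM10, the 4 subunits of polymerase alpha-primase, 5 subunits of polymerases delta and epsilon, PCNA and the 5 subunits of its loader, the 3 RPA subunits, and FEN1 and LIG1.

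RNA-Seq was done on 4 libraries of total RNA, 2 of WT cells and 2 of Helz-null cells. HEK293T cells descend from human embryonic kidney cells and carry the SV40 large T antigen, a viral protein that binds RB. The Helz-null cells are a single line made from HEK293T by Cas9 editing of helz, which left a small deletion that shifts the reading frame, so line and genotype cannot be told apart. HELZ is a putative RNA helicase that binds the CCR4-NOT deadenylase complex, and the comparison asks how its absence affects the transcriptome. Neither cell type was treated, and both were plated in equal number on the day before harvest. The study calls the 2 libraries of each cell type biological replicates, and the p-values below measure the spread between these libraries.

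The libraries held between 41745401 and 70464140 counts, and single members held between 921 and 34223 counts, far from the floor of 3 counts. Replicates differed by more than counting noise in both cell types, with a chi-square per degree of freedom of 3.44 in WT and 2.67 in Helz-null cells. Whether the mates of a pair were counted singly is not given in the sources used here, but the library totals are about double the mapped reads given in the study's methods. If both mates were counted, these values come to 1.72 and 1.33. HELZ, the edited gene, was at 99.8 and 103.9 CPM (counts per 1000000 counts of the library, scaled by the TMM method of edgeR) in WT cells and, in Helz-null cells, at 36.98 and 37.9 CPM. This was a log2 fold change (log2FC, Helz-null over WT) of -1.44, with a false discovery rate (FDR) of 2.13e-27 in edgeR's quasi-likelihood test. All 7 markers chosen for HEK293T cells were detected in every library. For all 7 the WT and Helz-null libraries did not overlap, beside 70.6% of all tested genes with TMM scaling. CPM of markers, of HEK293T and of other cell types, were scaled by library total only, without TMM. Lower in Helz-null cells were VIM (1037 CPM in both WT libraries, 969 and 954 in Helz-null), KRT8 (26.5 and 29.0 against 13.8 and 14.7), KRT18 (63.7 and 62.6 against 57.9 and 57.5) and LIN28B (145 and 148 against 143 in both). Higher were NEFM (233 and 223 against 434 and 429.8 CPM) and, at low levels, PAX2 (5.01 and 5.20 against 6.99 and 6.41) and LHX1 (2.88 and 2.60 against 6.52 and 4.84). Their part in the results below was not tested. The 6 markers of other cell types summed to between 0.55 and 0.59 CPM in WT and between 0.29 and 0.37 CPM in Helz-null cells, and HBB and INS had 0 counts in every library.

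Eukaryotic DNA replication begins when the origin recognition complex, with CDC6 and CDT1, loads the ring-shaped MCM2-7 helicase onto DNA in G1 phase. In S phase CDC45 and GINS join MCM2-7 to form the active helicase, polymerase alpha-primase lays down primers, polymerases epsilon and delta extend the leading and the lagging strand on the PCNA clamp, and RPA protects the exposed single strands. Many of these genes are transcribed in late G1 and S phase under E2F factors, which RB proteins hold in check.

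Of the 41 replication genes, 5 passed an FDR of 0.005 in edgeR's quasi-likelihood test across all 10978 genes, which is 12.2%, against 29.4% of all tested genes. The polymerase alpha gene POLA1 and the helicase genes MCM4 and MCM6 were up-regulated in Helz-null cells (7.32% of the members, against 13.9% of all tested genes). The polymerase delta subunit gene POLD3 and the GINS subunit gene GINS3 were down-regulated (4.88%, against 15.5%). The changes were small. POLD3 fell to 79.2% and POLA1 rose to 122.8% of the WT mean, and the other members lay between those values. The median log2FC of the 41 genes was 0.013, beside -0.00091 for all tested genes, and their median absolute log2FC was 0.064, beside 0.106. With scaling by library size only, which moved the median of all tested genes to 0.032, 9 members passed as up-regulated and 1 as down-regulated (21.95% and 2.44%, against 19.2% and 12.01% of all tested genes). With upper quartile scaling 7 and 2 passed (17.1% and 4.88%, against 15.8% and 13.8%). In a test against a change of at least 1.2-fold, 0 of the 41 passed, against 4.87% of all tested genes. In the edgeR test against no change, 19 members (46.3%, against 50.9% of all tested genes) had an unadjusted p under 0.05. With DESeq2, 4 members (9.76%, against 21.8%) passed the FDR threshold.

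**Figure D1:**
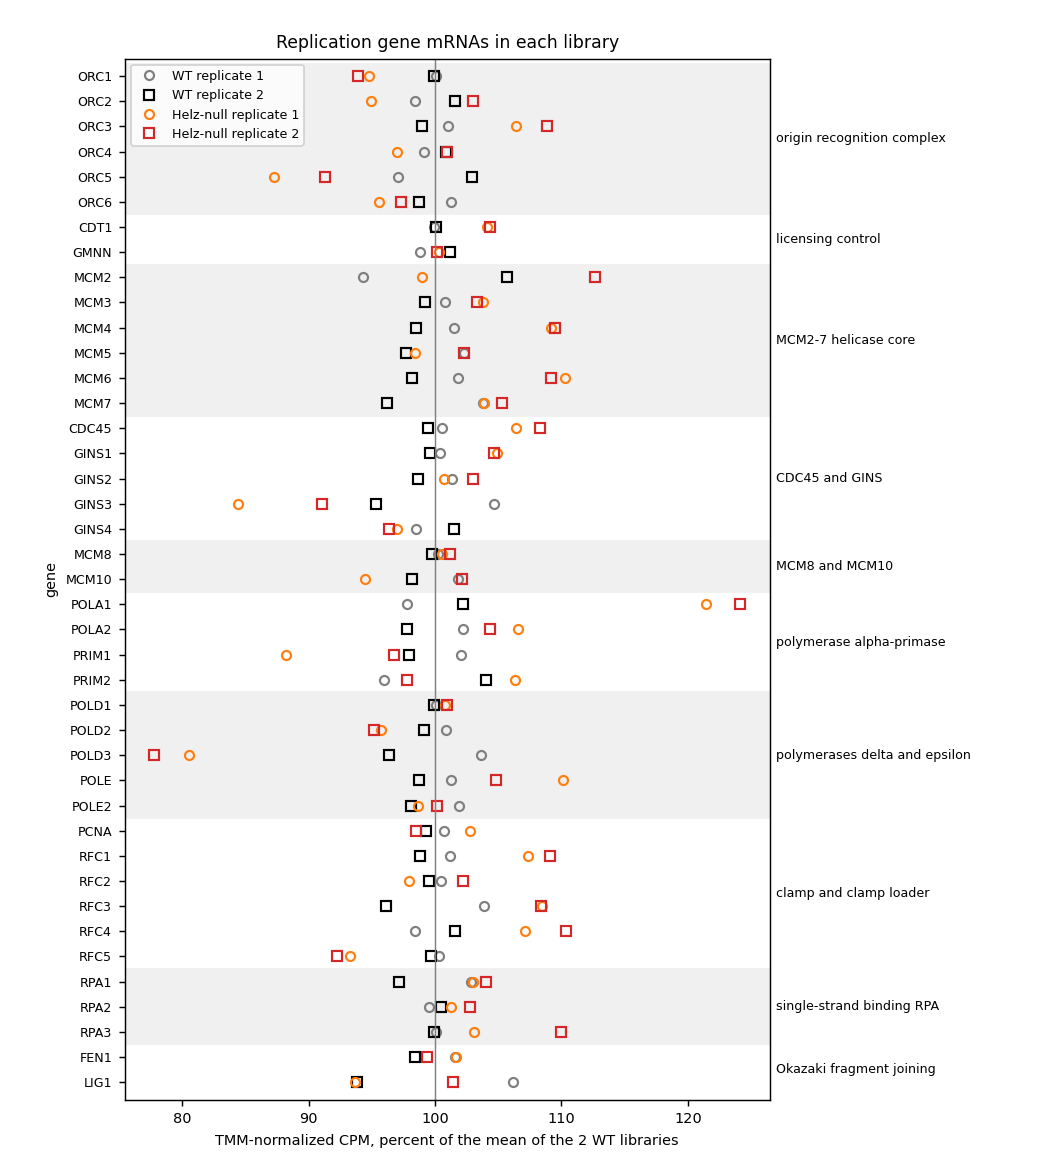
TMM-normalized CPM of the 41 genes in each library, as a percentage of the mean of the 2 WT libraries (circles, replicate 1, and squares, replicate 2, with WT in grey and black and Helz-null in orange and red). POLA1 stands farthest to the right and POLD3 farthest to the left, while the Helz-null libraries of most genes lie within 10 percentage points of the WT mean.

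The 36 genes that did not pass were not thereby shown to be equal in the 2 cell types, but their intervals were narrow. Their 95% intervals ran from -0.26 at the lowest bound to 0.21 at the highest, or from 83.8% of the WT level to 1.15-fold of it. The interval included 0 for 22 of them and excluded it for 14. Standard errors lay between 0.028 and 0.067 on the log2 scale over the 41 genes. The median absolute log2 difference between the 2 WT replicates was 0.044 over the members, and between the 2 Helz-null replicates it was 0.030. For 28 of the 41 genes (68.3%) the 2 Helz-null libraries lay both above or both below the 2 WT libraries, against 70.6% of all tested genes. Helz-null was higher for 19 of them (46.3%, against 34.9%) and lower for 9 (21.95%, against 35.7%). In a bulk sample, a different share of cells in S phase and a different amount of mRNA per cell cannot be told apart.

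**Figure D2:**
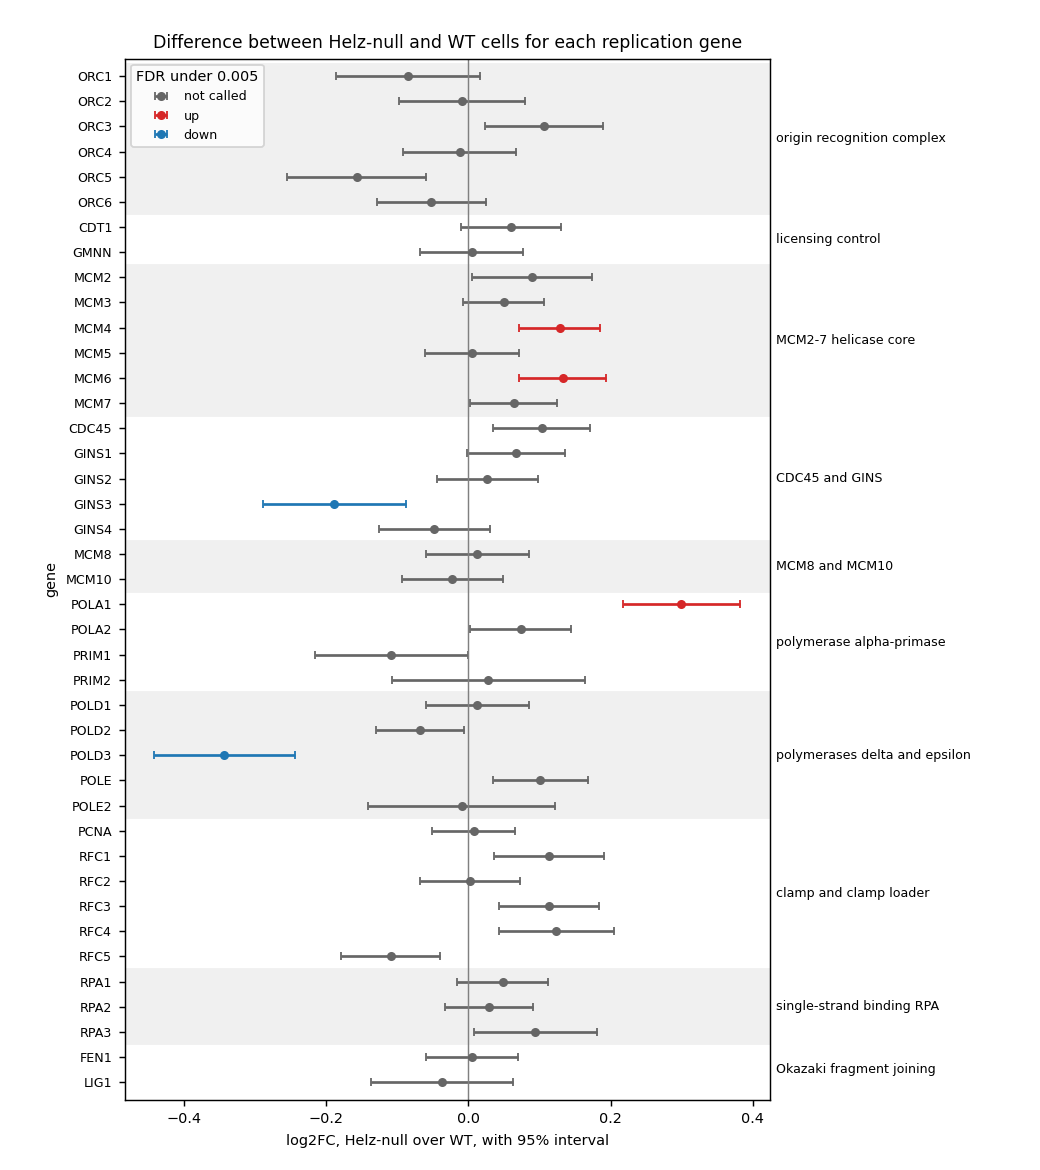
log2FC of each replication gene, Helz-null over WT, with its 95% interval from edgeR's quasi-likelihood fit (red, up-regulated, blue, down-regulated, grey, FDR of 0.005 or more). The interval of POLA1 lies clear of all others and that of POLD3 overlaps those of GINS3 and ORC5, while 35 of the 41 intervals stay within 0.2 on either side of 0.

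Because E2F factors are the textbook regulators of these genes, the region around each transcription start was searched for the E2F element (TTT, then CC, CG, GC or GG, then CGC, on either strand). The windows were those of RefSeq on GRCh38.p14, from 250 bases before to 50 bases after the start, and 35 of the 41 genes had one. The E2F element was found in 18 of these 35 genes (51.4%), against 6.96% of the 8526 tested genes and 3.99% of all 27305 genes with a window. By single windows, the share was 40.9% of 44 windows of the replication genes and 3.31% of all 35116 windows. The CCAAT box, another promoter element common in cell cycle genes, was found in 60.0% of the replication genes, against 44.1% of the tested and 39.7% of all genes. The CHR element TTTGAA, known from genes expressed in mitosis, was found in 0 of the 35, against 13.3% of the tested genes. TATAAA was found in 5.71%, against 7.38%. These are matches of letters and not sites of measured binding, and an absent match says only that the letters are not in the window.

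The stretches below are printed because they hold the E2F element, in capitals, in the up-regulated genes MCM6 and POLA1 and, for comparison, in 6 genes of the same machinery that did not pass the test. In MCM6 both stretches carry a pair of overlapping elements, one on each strand. All run from 5′ to 3′ in the direction of transcription and lie before the start site.
MCM6, chr2:135876558-135876621, minus strand: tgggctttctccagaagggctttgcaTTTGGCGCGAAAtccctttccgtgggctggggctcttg
MCM6, chr2:135876496-135876559, minus strand: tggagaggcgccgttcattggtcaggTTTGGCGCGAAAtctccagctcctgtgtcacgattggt
POLA1, chrX:24693755-24693814, plus strand: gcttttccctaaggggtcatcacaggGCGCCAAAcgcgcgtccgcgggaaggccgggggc
POLA2, chr11:65261883-65261942, plus strand: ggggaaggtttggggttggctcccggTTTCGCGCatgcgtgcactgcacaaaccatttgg
PCNA, chr20:5126648-5126707, minus strand: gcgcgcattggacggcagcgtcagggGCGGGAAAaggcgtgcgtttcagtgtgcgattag
CDT1, chr16:88803728-88803787, plus strand: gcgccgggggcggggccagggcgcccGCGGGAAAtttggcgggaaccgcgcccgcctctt
RFC3, chr13:33818068-33818127, plus strand: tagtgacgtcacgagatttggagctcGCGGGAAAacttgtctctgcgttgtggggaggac
LIG1, chr19:48170425-48170484, minus strand: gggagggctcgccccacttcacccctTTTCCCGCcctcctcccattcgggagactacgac
MCM7, chr7:100101551-100101610, minus strand: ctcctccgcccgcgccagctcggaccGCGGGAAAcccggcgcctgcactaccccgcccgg

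The element was found among genes that rose, fell or did not pass. It lay in both up-regulated genes with a window, MCM6 and POLA1, in the only down-regulated gene with a window, GINS3, and in 15 of 32 genes that did not pass the test. In MCM6 the first of each overlapping pair began 152 and 90 bases before the start, and in POLA1 the element began 137 bases before it. Among genes that did not pass, elements began 187 bases before the start in MCM7, 174 in MCM3, 114 in LIG1, 59 in PCNA, 55 in RFC3, 53 in POLA2 and 35 in CDT1. Of the 24 elements in the 18 genes, 14 began within 100 bases before the start and 4 began after it.

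**Figure D3:**
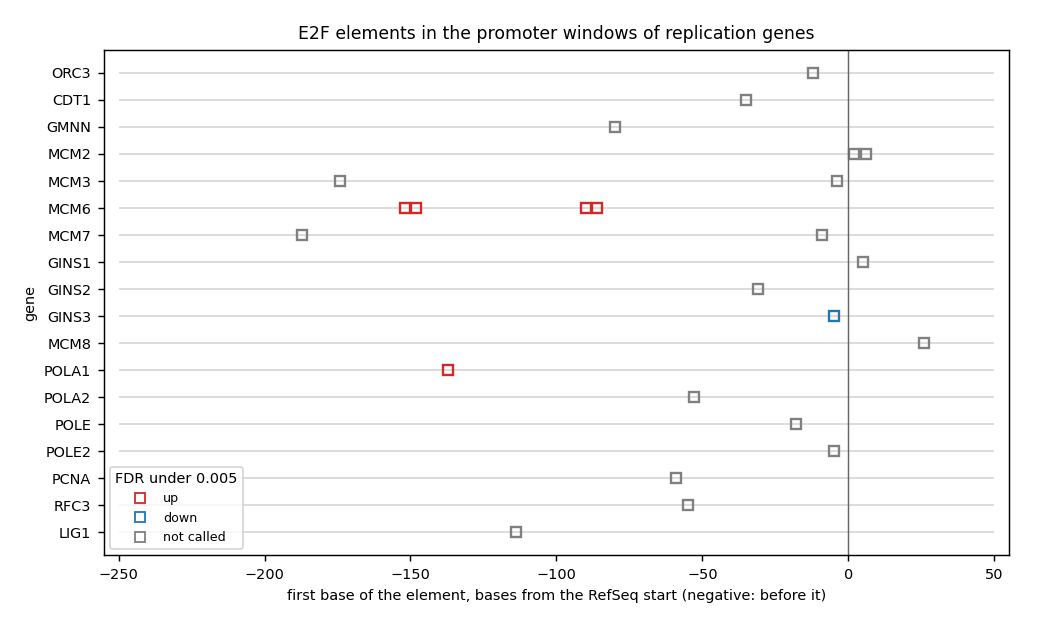
Position of each E2F element in the promoter windows of the 18 replication genes that hold one, in bases from the RefSeq start (vertical line), with colours for the result of the test. Of the 24 elements, 14 begin within 100 bases before the start, and those that begin farther upstream belong to the up-regulated genes POLA1 and MCM6 and to MCM3, MCM7 and LIG1, which did not pass the test.

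The genes of the origin recognition complex, which marks the sites where replication can start, had log2FC values between -0.16 and 0.11, and 0 of 6 passed the test, against 29.4% of all tested genes (2 had an unadjusted p under 0.05 in the edgeR test, against 50.9%, and 0 passed with DESeq2, against 21.8%). ORC5 was lowest, at 48.6 and 51.6 CPM in WT and 43.8 and 45.8 CPM in Helz-null cells. The groups did not overlap, with a log2FC of -0.16 (95% interval -0.26 to -0.059) and an FDR of 0.00784 in edgeR's quasi-likelihood test. ORC5 passed the threshold without WT replicate 1, with a log2FC of -0.20 and an FDR of 0.00206, and with the replicate number as a block (FDR 0.00306). ORC3 was the only gene of the complex above 0, at 65.3 and 63.9 CPM in WT and 68.7 and 70.3 CPM in Helz-null cells (log2FC 0.11, FDR 0.0326 in edgeR's test). ORC3 passed with library size scaling (FDR 0.00468) and with a correction for GC content (FDR 0.00250). ORC1, the large ATPase subunit, was at 41.7 and 41.6 CPM in WT and 39.5 and 39.1 CPM in Helz-null cells, and its interval of -0.19 to 0.017 included 0. ORC2, ORC4 and ORC6 had log2FC values of -0.0085, -0.012 and -0.052, and those of ORC2 and ORC4 changed sign with library size scaling. The summed CPM of the 6 genes was 381 ± 2.02 (SD, n = 2) in WT and 374 ± 9.11 in Helz-null cells, 98.1% of WT, with overlapping groups, and 100.4% with library size scaling.

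CDT1 loads MCM2-7, and geminin, the product of GMNN, binds and inhibits CDT1. CDT1 was at 104.2 and 104.4 CPM in WT and at 108.5 and 108.8 CPM in Helz-null cells, without overlap but with an interval of -0.010 to 0.13. GMNN was at 95.1 and 97.3 CPM in WT and 96.5 and 96.4 CPM in Helz-null cells, which lay within the WT range. The log2FC of 0.0046 for GMNN had an interval of -0.068 to 0.077.

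In the MCM2-7 helicase 2 of 6 genes passed with TMM scaling, against 29.4% of all tested genes. All 6 log2FC values were above 0, from 0.0053 for MCM5 to 0.13 for MCM6, with every scaling tried, although that of MCM5 fell to -0.014 with a correction for GC content. MCM4 (chromosome 8 of GRCh37, 48872745 to 48890720, plus strand) was at 393 and 381 CPM in WT and at 423 and 424 CPM in Helz-null cells. Both Helz-null libraries were above both WT libraries, and the log2FC was 0.13 (SE 0.028, FDR 0.000264 in edgeR's quasi-likelihood test). MCM6 (chromosome 2, 136597196 to 136634013, minus strand) was at 215 and 207 CPM in WT and at 233 and 230.4 CPM in Helz-null cells. Its groups did not overlap either, and its log2FC was 0.13 (SE 0.030, FDR 0.000422). MCM4 and MCM6 form the catalytic core of the ring with MCM7. Neither call held when a Helz-null library was left out: without Helz-null replicate 1 the FDR was 0.00733 for MCM4 and 0.0119 for MCM6, and without Helz-null replicate 2 it was 0.0110 and 0.00565, at log2FC values between 0.13 and 0.14.

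Of the other helicase genes, MCM7 was at 484 and 449 CPM in WT and at 484 and 491 CPM in Helz-null cells. Its lowest Helz-null value was just above its highest WT value, with a log2FC of 0.064 and an FDR of 0.0819 in edgeR's test. MCM7 passed without WT replicate 1, with a log2FC of 0.12 and an FDR of 0.000101. MCM2 was at 162 and 182 CPM in WT and at 169.98 and 193 CPM in Helz-null cells. Replicate 2 was thus the higher library of MCM2 in both cell types, by more than the genotypes differed. The log2FC of MCM2 was 0.090 with all libraries (FDR 0.0782) and 0.17 without WT replicate 2 or without Helz-null replicate 1, when it passed with FDR values of 2.37e-06 and 0.000368. MCM3 was at 347 and 341 CPM in WT and 357 and 355 CPM in Helz-null cells, and MCM5 at 177 and 169 CPM against 170.4 and 177 CPM. The summed CPM of the 6 subunits was 1753 ± 34.2 (SD, n = 2) in WT and 1854 ± 24.1 in Helz-null cells, 105.8% of WT, and the groups did not overlap.

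CDC45 and GINS, the partners that activate MCM2-7, held a gene on either side. GINS3 (chromosome 16, 58328984 to 58440051, plus strand) encodes the PSF3 subunit and was at 56.5 and 51.4 CPM in WT and at 45.5 and 49.1 CPM in Helz-null cells. The Helz-null libraries were both lower, but the replicates of each cell type lay far apart, by -0.14 and 0.11 on the log2 scale, beside a log2FC of -0.19 (SE 0.050, FDR 0.00199 in edgeR's quasi-likelihood test). This call was the least stable of the 5. The FDR was 0.0176 with DESeq2, 0.00834 with library size scaling, 0.0982 without WT replicate 1 and 0.0552 without Helz-null replicate 1, at log2FC values between -0.19 and -0.11. CDC45 was at 115 and 114 CPM in WT and at 122 and 124 CPM in Helz-null cells, without overlap, and its log2FC of 0.10 (95% interval 0.035 to 0.17) had an FDR of 0.0122. CDC45 passed with library size scaling (FDR 0.000923) and with upper quartile scaling (FDR 0.00429). GINS1, GINS2 and GINS4 had log2FC values of 0.067, 0.027 and -0.048, with intervals that included 0. The 4 GINS proteins form a complex with 1 copy of each, and per length their WT levels ran from 86.6 for GINS2 down to 20.9 for GINS4, in FPKM, which are CPM per kilobase of gene width.

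MCM8, which works with MCM9 in repair at stalled forks, was at 94.1 and 93.7 CPM in WT and 94.4 and 95.01 CPM in Helz-null cells, with an interval of -0.060 to 0.085. MCM10, which helps to activate the helicase, was at 147 and 141 CPM in WT and 136 and 147 CPM in Helz-null cells, and the groups overlapped. The log2FC of MCM10 was -0.023, and 0.01 with library size scaling.

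Polymerase alpha-primase makes the RNA-DNA primers of every Okazaki fragment, and its catalytic polymerase subunit POLA1 (chromosome X, 24711990 to 25015103, plus strand) showed the strongest increase among the 41 genes. POLA1 was at 61.1 and 63.9 CPM in WT and at 75.9 and 77.6 CPM in Helz-null cells. The groups lay far apart, with means of 62.5 ± 1.97 and 76.7 ± 1.19 CPM (SD, n = 2 each). The log2FC was 0.30 (SE 0.041, 95% interval 0.22 to 0.38), with an FDR of 1.06e-07 in edgeR's quasi-likelihood test. POLA1 ranked 657 of 10978 tested genes by log2FC. It passed with all alternatives except the test against 1.2-fold, and its log2FC stayed between 0.27 and 0.33. The other subunits did not rise with it by a like amount. POLA2, the accessory subunit, was at 111 and 106 CPM in WT and 116 and 113 CPM in Helz-null cells (log2FC 0.074, interval 0.0029 to 0.14). PRIM1, the catalytic primase subunit, was at 41.5 and 39.9 CPM in WT and 35.9 and 39.4 CPM in Helz-null cells (log2FC -0.11, interval -0.22 to -0.00043). PRIM2, the large primase subunit, was at 22.04 and 23.9 CPM against 24.4 and 22.4 CPM, with overlap. In the annotation, 12.1% of the exon bases of PRIM1 also lie in exons of HSD17B6 or NACA, so that its counts are less certain. The summed CPM of the 4 genes was 234.9 ± 1.35 (SD, n = 2) in WT and 252.5 ± 0.557 in Helz-null cells, 107.5% of WT.

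Of the polymerases that extend the primers, POLD3 (chromosome 11, 74204896 to 74380162, plus strand) showed the strongest decrease among the members. This subunit of polymerase delta binds PCNA and is shared with the translesion polymerase zeta. POLD3 was at 54.8 and 51.0 CPM in WT and at 42.6 and 41.2 CPM in Helz-null cells. The groups did not overlap, with means of 52.9 ± 2.71 and 41.9 ± 1.04 CPM (SD, n = 2 each). The log2FC was -0.34 (SE 0.049, 95% interval -0.44 to -0.24), with an FDR of 2.65e-07 in edgeR's quasi-likelihood test, and POLD3 ranked 10383 of 10978 by log2FC. It passed with all alternatives except the test against 1.2-fold, and its log2FC stayed between -0.39 and -0.29. POLD1, the catalytic subunit of the same enzyme, was at 93.5 and 93.4 CPM in WT and 94.3 and 94.3 CPM in Helz-null cells, with an interval of -0.060 to 0.085. POLD2, the subunit that holds POLD1 and POLD3 together, was at 191 and 188 CPM in WT and 181 and 180.4 CPM in Helz-null cells (log2FC -0.068, FDR 0.0697). POLE, the catalytic subunit of polymerase epsilon, was at 155 and 151 CPM in WT and at 168 and 160.1 CPM in Helz-null cells, and its log2FC of 0.10 had an FDR of 0.0111 in edgeR's test and of 0.00358 without WT replicate 1. POLE also passed with library size scaling (FDR 0.000708), with upper quartile scaling (0.00356) and with the replicate block (0.00477). POLE2 was at 23.3 and 22.5 CPM against 22.6 and 22.9 CPM, with overlap.

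PCNA, the sliding clamp, was at 356 and 350.4 CPM in WT and at 363 and 348 CPM in Helz-null cells, and the groups overlapped. Its log2FC was 0.0076, with an interval of -0.051 to 0.066. Among the subunits of replication factor C, which opens and loads the clamp, 0 of 5 passed the test, against 29.4% of all tested genes, and together with PCNA 4 of 6 had an unadjusted p under 0.05 in the edgeR test (against 50.9%) and 0 passed with DESeq2 (against 21.8%). RFC1, the large subunit, was at 77.9 and 76.0 CPM in WT and 82.6 and 84.0 CPM in Helz-null cells (log2FC 0.11, FDR 0.0138). RFC3 was at 142 and 131 CPM in WT and at 148 CPM in both Helz-null libraries (log2FC 0.11, FDR 0.00689). RFC4 was at 67.8 and 70.0 CPM in WT and 73.8 and 76.0 CPM in Helz-null cells (log2FC 0.12, FDR 0.0110). All 3 were higher in both Helz-null libraries than in either WT library. RFC5 went the other way, from 112 CPM in both WT libraries to 104.4 and 103.2 CPM in Helz-null cells (log2FC -0.11, FDR 0.00950), and RFC2 lay at a log2FC of 0.0026. RFC3 passed without WT replicate 1, with a log2FC of 0.17 and an FDR of 2.39e-05, and RFC4 without WT replicate 2, with a log2FC of 0.15 and an FDR of 0.00389. Scaling also decided these calls. With library size scaling RFC1, RFC3 and RFC4 passed, with FDR values of 0.00142, 0.000423 and 0.00122, and with a correction for GC content all 3 passed as well, with 0.00169, 0.000198 and 0.00246. With upper quartile scaling RFC3 and RFC4 passed, with 0.00224 and 0.00441. RFC3 also passed with the replicate number as a block (FDR 0.00169).

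RPA coats single-stranded DNA as a complex of a large, a middle and a small subunit. RPA1 was at 196 and 185 CPM in WT and 196 and 198 CPM in Helz-null cells, RPA2 at 190.5 and 192 against 194 and 197 CPM, and RPA3 at 62.6 and 62.4 against 64.4 and 68.7 CPM. For all 3 genes both Helz-null libraries lay above both WT libraries, with log2FC values of 0.048, 0.030 and 0.094, and 0 of 3 passed the test (1 at an unadjusted p under 0.05 in the edgeR test, 0 with DESeq2). Of all tested genes, 34.9% were higher in both Helz-null libraries, 29.4% passed, 50.9% had an unadjusted p under 0.05 and 21.8% passed with DESeq2. FEN1, the nuclease that trims Okazaki fragments, was at 168 and 163 CPM in WT and 168 and 164 CPM in Helz-null cells, with an interval of -0.059 to 0.070. LIG1, the ligase that joins them, was at 63.5 and 56.2 CPM in WT and 56.1 and 60.7 CPM in Helz-null cells. The 2 WT libraries of LIG1 lay farther apart than the genotype means.

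Per length, the members differed far more from one another than between genotypes. FPKM were computed from the counts and the deposited gene widths, and depend on those widths. PCNA had the highest level, 245 FPKM in WT and 246 FPKM in Helz-null cells, followed by MCM7 (128 and 133 FPKM), MCM3 (107 and 111 FPKM) and RPA2 (97.8 and 99.8 FPKM). PRIM2 had the lowest, 8.43 and 8.61 FPKM, below ORC4 (10.8 and 10.7 FPKM) and POLA1 (11.5 and 14.1 FPKM). The 6 subunits of MCM2-7, which form a ring with 1 copy of each, kept the order MCM7, MCM3, MCM4, MCM5, MCM6 and MCM2 in all 4 libraries. The order within the other roles was also the same in every library, with 3 exceptions. POLD3 was above POLE2 in both WT libraries and below it in both Helz-null libraries, RFC5 was above RFC4 in both WT libraries and below it in both Helz-null libraries, and GINS3 was below GINS4 in Helz-null replicate 1. These neighbours in the order lay close together, POLD3 at 12.8 FPKM and POLE2 at 11.8 FPKM in WT.

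**Figure D4:**
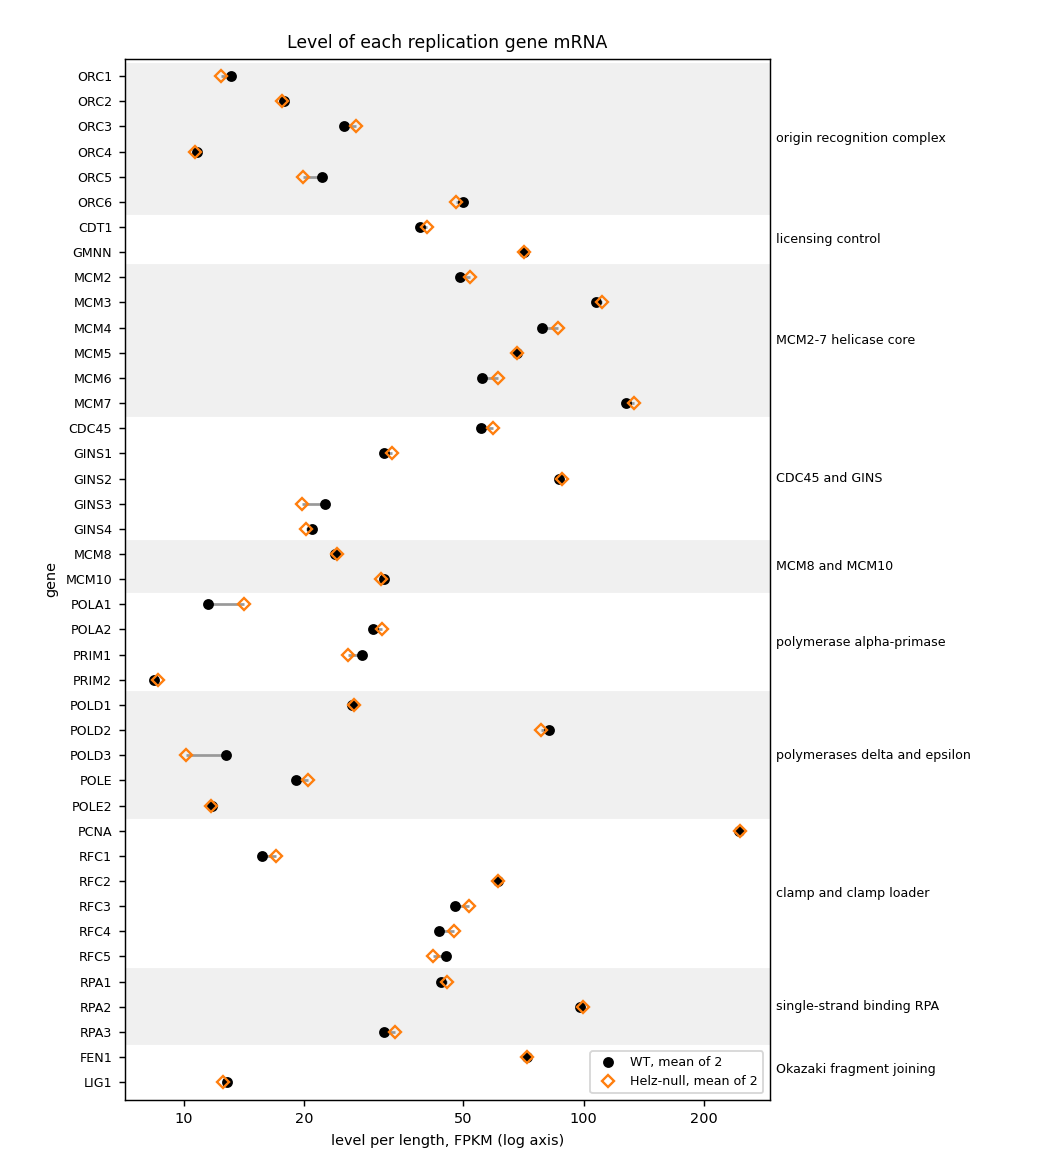
Level per length of each replication gene as the mean FPKM of the 2 WT libraries (black) and of the 2 Helz-null libraries (orange), on a log axis. The genes span from about 8.43 FPKM for PRIM2 to 245 FPKM for PCNA in WT, and the 2 symbols of most genes nearly coincide.

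All 41 genes summed to 5362 and 5253 CPM in WT cells and to 5423 and 5482 CPM in Helz-null cells. The Helz-null mean was 102.7% of the WT mean with TMM scaling and 105.1% with library size scaling, and the groups did not overlap with either. The sums of licensing regulators (102.3% of WT), PCNA and its loader (102.1%) and RPA (103.3%) did not overlap either. Those of CDC45 and GINS (101.4%), MCM8 and MCM10 (99.3%), polymerases delta and epsilon (98.5%) and FEN1 and LIG1 (99.7%) overlapped, and with library size scaling the last 3 exceeded the WT mean and the groups of CDC45 and GINS no longer overlapped. No test of these sums was run.

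The changes of the members were set beside features that the list did not use. Across the 41 genes, as a description over genes that share the same 4 libraries, log2FC had a Pearson correlation of 0.049 with transcript GC content, 0.16 with log2 FPKM in WT, 0.19 with log2 gene width and -0.20 with the median log2FC of the 10 tested genes on each side in the genome. The median GC content of the member transcripts was 45.9%, against 48.3% for tested genes. Those neighbourhood medians lay between -0.075 and 0.14, and 0 of 41 reached 0.15 in either direction. POLA1 and POLD3 had neighbours with a median of -0.028 and 0.0083. GINS3 had neighbours with a median of 0.13, opposite in sign to its own change. PCNA and RPA2 each have 3 annotated pseudogenes named after them and RPA3 has 2, and how reads were shared among such copies is not given in the sources used here.

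The wider replication and cell cycle programme was read from 6 further gene lists, beside the 13.9% of all tested genes that were up-regulated and the 15.5% that were down-regulated. Of 29 further replication factors, 3 were up-regulated and 4 down-regulated in edgeR's quasi-likelihood test, with a median log2FC of 0.011. The 4 down-regulated genes include TICRR, which helps to load CDC45, at 76.7 and 75.9 CPM in WT and 60.2 and 59.2 CPM in Helz-null cells (log2FC -0.35, FDR 2.27e-09). TIPIN, a fork protection factor, fell from 71.4 and 71.9 CPM to 59.1 and 57.4 CPM (log2FC -0.30, FDR 1.42e-07), and CHTF18, part of an alternative clamp loader, had a log2FC of -0.22. Among the 3 that rose, SSBP1, the single-strand binding protein of mitochondria, had a log2FC of 0.28 (FDR 1.05e-09) and DBF4B, a partner of the CDC7 kinase, one of 0.22. CDC6, which loads MCM2-7 together with CDT1, was at 142 and 135 CPM in WT and 138 and 144 CPM in Helz-null cells, with overlap.

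Of 9 genes of nucleotide supply, 2 were up-regulated and 1 was down-regulated. RRM1, the large subunit of ribonucleotide reductase, rose by a log2FC of 0.12, while DCTD, the dCMP deaminase, fell from 78.9 and 77.6 CPM to 50.8 and 51.8 CPM (log2FC -0.61, FDR 2.32e-15 in edgeR's test). Of 7 genes that restore chromatin behind the fork, DNMT1, the maintenance DNA methyltransferase, rose (log2FC 0.28) and UHRF1, which recruits it, fell (log2FC -0.25). Their CPM were 237 and 228 in WT and 285 and 282 in Helz-null cells for DNMT1, and 156 and 147 against 125 and 130.2 for UHRF1.

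Among 16 E2F, RB, cyclin E and CDK2 genes, which act upstream of the replication genes, 0 passed the test, against 29.4% of all tested genes. Of these 16 genes, 8 (against 50.9%) had an unadjusted p under 0.05 in the edgeR test and 0 (against 21.8%) passed with DESeq2. Their median log2FC was -0.039 and the values ran from -0.19 for E2F8 to 0.13. E2F1 was at 69.9 and 71.6 CPM in WT and 75.1 and 78.3 CPM in Helz-null cells, and CCNE1 at 42.8 and 42.9 CPM against 39.0 and 38.2 CPM, with FDR values of 0.0128 and 0.0129. Of 20 mitotic genes, MKI67, TOP2A and KIF20A were up-regulated and KIF23 was down-regulated, with a median log2FC of 0.030. The proliferation marker MKI67 was at 166 and 164 CPM in WT and 189 and 182 CPM in Helz-null cells (log2FC 0.16), and KIF23, a kinesin of cytokinesis, at 104.9 and 105.6 CPM against 73.9 and 77.5 CPM (log2FC -0.47). Of 7 genes of translesion synthesis, 6 were tested and POLI was not, and all 6 log2FC values were below 0. POLK (log2FC -0.34) and RAD18 (log2FC -0.34) passed the test.

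**Figure D5:**
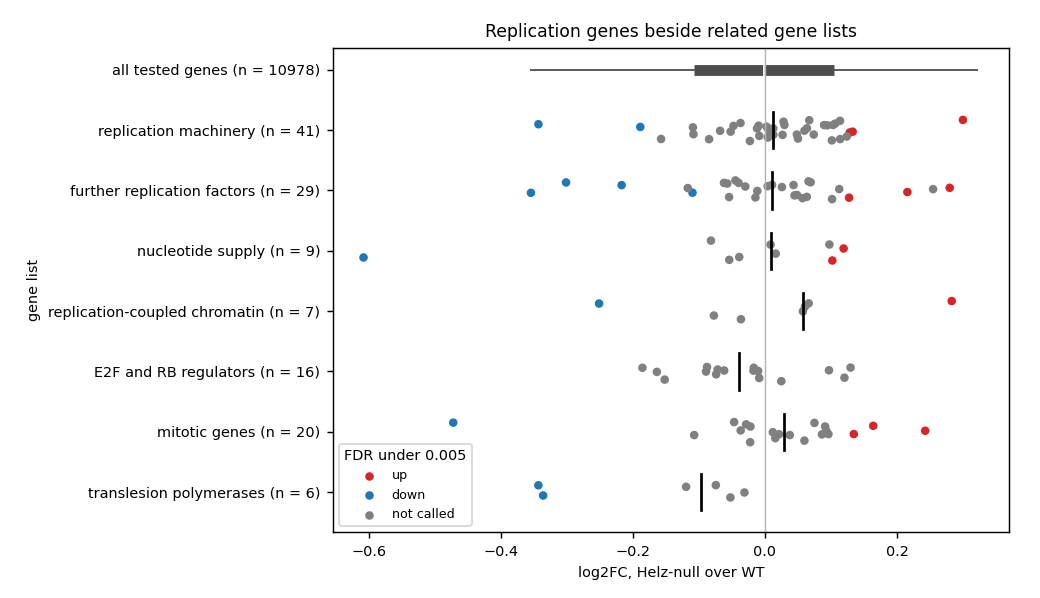
log2FC of each gene (dots, red, up-regulated, blue, down-regulated, grey, FDR of 0.005 or more) in the replication machinery and 6 further lists, with vertical bars at the medians; for all 10978 tested genes the thick bar is the middle part between the quartiles and the thin line the range from the 5th to the 95th percentile. The medians of the lists lie between -0.097 and 0.057, and the replication machinery is centred at 0.013.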

How the data were processed

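The 4 RNA-Seq libraries, 2 per cell type, were grouped by the genotype given in the labels. The authors filtered out ribosomal sequences with Bowtie2, aligned read pairs to hg19 with TopHat2, used QuasR to count reads per gene and deposited these counts without normalization, with a gene width. Versions, gene annotation, use of strand and the counting of mates are not given in the sources used here. From the deposited comparison, which also holds the fold changes and p-values of the authors' test, which were not used, only the list of 10978 genes was taken. The authors chose it with an FPKM above 2.

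Counts were tested in R 4.3.3 with edgeR 4.0.16 (TMM scaling, estimateDisp, glmQLFit, glmQLFTest, genotype as the only term) over all 10978 genes, and genes were called at a Benjamini-Hochberg FDR under 0.005. Standard errors and 95% intervals were derived from the log2FC and the F statistic. Library totals were 41745401 to 70464140 counts, of which 97.8% lay in tested genes, TMM factors 0.987 to 1.01 and the biological coefficient of variation 2.6%. The floor of 3 counts equals 0.043 to 0.072 CPM and covers counting error only. FPKM were computed from the counts and the deposited width. Named genes were all 41 members, HELZ, and up to 4 called genes of each further list with the largest absolute log2FC. DBF4B, CDC6, E2F1, E2F8, CCNE1 and POLI were named outside this rule, after their values were seen. The values of 1 called gene of the further lists are not reported here. The members and lists were chosen with earlier results of these data known.

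Gene positions, exons and GC content came from GENCODE v44lift37 on GRCh37, with positions for 10893 and GC content for 10865 of the tested genes. Promoter windows came from RefSeq on GRCh38.p14 and were matched by symbol. The 17 alternatives covered DESeq2 1.42.0, other scalings, gene filters, thresholds, a replicate block, thinned or divided counts, correction for GC content and leaving out each library in turn. The steps were tested on simulated data. Python 3.11.15, pandas 2.3.3, numpy 2.4.6 and matplotlib 3.10.9 were used for summaries and figures.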

Additional observations from a re-analysis of the deposited data

How the results depend on the processing

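Of the 41 replication genes, 26 kept the same call in all 17 alternatives. Against 3 up-regulated and 2 down-regulated members and a median log2FC of 0.013, DESeq2 gave 1 down-regulated member. Scaling by library size only gave 9 up-regulated and 1 down-regulated members with a median of 0.046, upper quartile scaling gave 7 up-regulated, and a GC correction gave 7 up-regulated (17.1%, against 14.3% of all tested genes) with a median of 0.032. At an FDR under 0.05 there were 9 up-regulated and 4 down-regulated members (21.95% and 9.76%, against 21.6% and 22.8% of all tested genes). The further lists then held 34 calls, in place of 18, while calls among all tested genes came to 44.4%, in place of 29.4%. Against a change of at least 1.2-fold, 0 members were up-regulated and 0 down-regulated (against 1.98% and 2.90% of all tested genes). The further lists held 2 calls in that test, against 4.87% of all tested genes called. With the replicate number as a block (replicate block), 5 members were up-regulated and 3 down-regulated (12.2% and 7.32%, against 15.3% and 16.8%), ORC5, POLE and RFC3 being added. The libraries share only that number, since the deviations of same-numbered libraries correlated at 0.034 over 2 pairs. With single libraries left out, where the lone library of a cell type is taken to vary like the other cell type, up-regulated members ranged from 1 (without Helz-null replicate 2, 2.44% against 9.36% of all tested genes) and 2 (without Helz-null replicate 1, 4.88% against 9.65%) to 5 (without WT replicate 2, 12.2% against 14.1%) and 6 (without WT replicate 1, 14.6% against 12.3%), down-regulated members from 1 to 2 and the median from 0.012 to 0.032. In these fits the down-regulated share of the members was 4.88% without WT replicate 1 (against 14.5% of all tested genes) and 4.88% without WT replicate 2 (against 15.1%). It was 2.44% without Helz-null replicate 1 (against 11.3%) and 4.88% without Helz-null replicate 2 (against 10.7%). The sign of the log2FC turned for 14 genes that had not passed the test, 13 with a log2FC between -0.037 and 0.060 and MCM2, at 0.090, which turned without Helz-null replicate 2. With a GC correction it became 0.031 for ORC2, 0.048 for ORC4, -7.8e-05 for CDT1, -0.014 for MCM5, 0.00043 for MCM10, -0.052 for POLD1, 0.032 for POLE2, -0.012 for RFC2 and -0.0082 for FEN1. With library size scaling it became 0.025 for ORC2, 0.021 for ORC4, 0.010 for MCM10 and 0.024 for POLE2, and with upper quartile scaling 0.0059 for ORC2, 0.0023 for ORC4 and 0.0047 for POLE2. Thinned libraries gave 0.014 for ORC2 and -0.00062 for PRIM2, and RFC2 fell to -0.00049 with genes of at least 1 count and to -0.00029 with the filter of edgeR. With single libraries left out, values ranged from -0.073 to 0.044 for ORC2, -0.043 to 0.014 for ORC4, -0.013 to 0.022 for GMNN, -0.012 to 0.17 for MCM2, -0.024 to 0.040 for MCM5, -0.083 to 0.029 for MCM10, -0.034 to 0.093 for PRIM2, -0.033 to 0.021 for POLE2, -0.022 to 0.039 for PCNA, -0.030 to 0.031 for RFC2, -0.015 to 0.028 for FEN1 and -0.11 to 0.061 for LIG1. The causes of these shifts were not tested. With 2 libraries per cell type, single libraries could not be tested for deviation from their group.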
